A study of Rattus norvegicus with 16 samples.

Results

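Proteasome genes were followed in rat supraspinatus, a muscle of the rotator cuff, over the 60 days after a tear combined with denervation. The members are the rows of the gene table whose symbol begins with Psma, Psmb, Psmc, Psmd, Psme, Psmf or Psmg and a digit. There are 49 such rows among 17147, and all 49 passed the filter for low counts. RNA of 16 libraries from Sprague Dawley rats was sequenced after polyA selection. There were 4 libraries at each of 0, 10, 30 and 60 days. The 0-day muscles were unoperated. The 3 later groups had all received the same operation on both sides, a full-thickness tear of the supraspinatus joined with suprascapular neurectomy. The effects of tear, nerve loss and surgery therefore cannot be told apart. There was no unoperated group at 10, 30 or 60 days, so the passing of time cannot be told apart from the operation either. The labels give no age or sex and do not say that the libraries of a group came from separate rats, so p-values measure the spread between these libraries, which may be partly technical.

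The proteasome is the protease that degrades proteins tagged with ubiquitin. Its barrel-shaped 20S core is built of alpha rings, which gate the entrance, and beta rings, of which 3 kinds of subunit cut proteins. The 19S cap sits on the barrel, recognises ubiquitin chains, unfolds the substrate with a ring of ATPases and removes the ubiquitin. Interferon induces replacement catalytic subunits, which form the immunoproteasome, and an activator that opens the core; both are known for their part in making peptides for antigen presentation. In skeletal muscle the proteasome is known as a main route by which contractile proteins are broken down when a muscle wastes after denervation.

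The 49 rows comprised 15 of the constitutive 20S core (8 alpha and 7 beta rows), 3 immunoproteasome subunits (Psmb8, Psmb9 and Psmb10), 17 of the 19S cap (6 ATPases, Psmc1 to Psmc6, and 11 other subunits), 4 activators, 1 inhibitor, 3 chaperones of cap assembly and 3 of core assembly. The remainder were Psma8 and Psmb11, core subunits known from testis and thymus, and Psmc3ip. Psmc3ip matches the rule by its letters alone, since its protein binds the ATPase PSMC3 and acts in meiotic recombination. Psma3 and Psma3l had fractional values in all 16 libraries, as fragments divided between rows would give, and RefSeq lists the latter as another name of the former, so their separate values are uncertain. Psmg3 was not analysed here.

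Libraries held 17.2 to 39.9 M fragments (M, mega), and all 4 at 60 days lay below every other library. The 3 operated groups also differed from 0 days in other tissue markers. The summed level of 9 muscle fibre markers was 216327 to 240187 CPM (fragments per M, scaled with edgeR's TMM factors) at 0 days, 63613 to 69922 at 10 days, 108083 to 152637 at 30 days and 135316 to 156788 at 60 days. Of these 9, 1 was higher and 8 lower at 10 days, 1 and 7 at 30 days (1 and 4 with library totals) and 2 and 4 at 60 days (2 and 2 with library totals). For 21 leukocyte markers the sum was 42.7 to 60.9 CPM at 0 days, 133 to 189 at 10 days, 164 to 219 at 30 days and 131 to 262 at 60 days. In this bulk tissue, fewer cells of a type and less RNA per cell cannot be told apart.

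At 10 days most proteasome transcripts were higher than in unoperated muscle, among them 14 of the 17 genes of the 19S cap and 6 of the 15 rows of the constitutive core. Of the 49 members, 35 were called changed by edgeR's quasi-likelihood test at an adjusted p under 0.05, which is also true of 62.7% of all genes tested. Higher calls numbered 30 (33.3% of all genes) and lower calls 5 (29.4% of all genes). The median log2 fold change of the members was 0.25, against 0.06 for all genes. At 30 days 29 members were called (64.6% of all genes), 16 higher (33.7%) and 13 lower (30.9%), and their median of 0.04 was next to that of all genes, 0.05. At 60 days 20 members were called (59% of all genes), 12 higher (29.9%) and 8 lower (29.1%), with a median of 0.02 against 0.04. A joint test of the 3 differences from 0 days called 42 of 49 members, against 84.7% of all genes.

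The later operated groups differed from 10 days mainly by lower levels. Between 30 and 10 days 26 members differed (47.3% of all genes), 22 of them lower at 30 days (24.3% of all genes) and 4 higher (23%). Between 60 and 10 days 27 differed (61.1% of all genes), 23 lower at 60 days (31.9%) and 4 higher (29.1%). Only 9 differed between 60 and 30 days (22.6% of all genes), 5 higher (10.3%) and 4 lower (12.4%). Of the 30 members higher at 10 days, 18 were then lower at 30 than at 10 days, beside 36.1% of all genes higher at 10 days, and 13 of these 18 belong to the cap and 2 to the constitutive core. Comparisons that share a group are not independent of one another.

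The scaling of the libraries bears on every direction against 0 days. TMM scaling sets changes against the bulk of the genes. Without a factor beyond the library totals, all genes had a median of 0.72 at 10 days, 0.54 at 30 days and 0.45 at 60 days on the log2 scale, and 49, 41 and 44 members were higher at these times and 0 lower. With upper-quartile factors 24 members were higher and 9 lower at 30 days, 22 were higher and 1 lower at 60 days, and 8 were higher and 19 lower at 60 against 10 days. With library totals 2 were higher and 12 lower at 60 against 30 days, and 0 higher and 36 lower at 60 against 10 days. With upper-quartile factors all genes had medians of 0.17 at 30 days, 0.18 at 60 days and 0.08 at 60 against 10 days. With library totals their medians were -0.09 at 60 against 30 days and -0.26 at 60 against 10 days. The share of all genes called was counted with TMM scaling only, so counts of members under other scalings, here and below, cannot be set against one. The fall from 10 to 30 days had 19 to 22 lower calls with TMM, RLE, upper-quartile and DESeq2 scaling and 34 with library totals. Calls given for single genes are those with TMM scaling. Upper-quartile factors ended those of Psma3, Psmd3, Psmd6 and Psmd7 at 30 days and of Psma3l, Psma7, Psmb5, Psmd1, Psmd9, Psmd12 and Psme3 at 60 days. They added higher calls for Psmb5 and Psma3l at 10 days, for Psma8, Psmb2, Psmb4, Psmb5, Psmc1, Psmc6, Psmd5 and Psmd13 at 30 days, and for Psma4, Psmb4, Psmc2, Psmc4, Psmc6, Psmd8, Psmd13, Psme1, Psme2 and Psme4 at 60 days. RLE factors and DESeq2 each ended the calls of Psmb2, Psmc5 and Psmc6 at 10 days and of Psmc4 at 30 days, and added lower calls for Psmd6 at 10 days and Psmb7 at 30 days, and DESeq2 also for Psmc5 at 60 days.

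**Figure D1:**
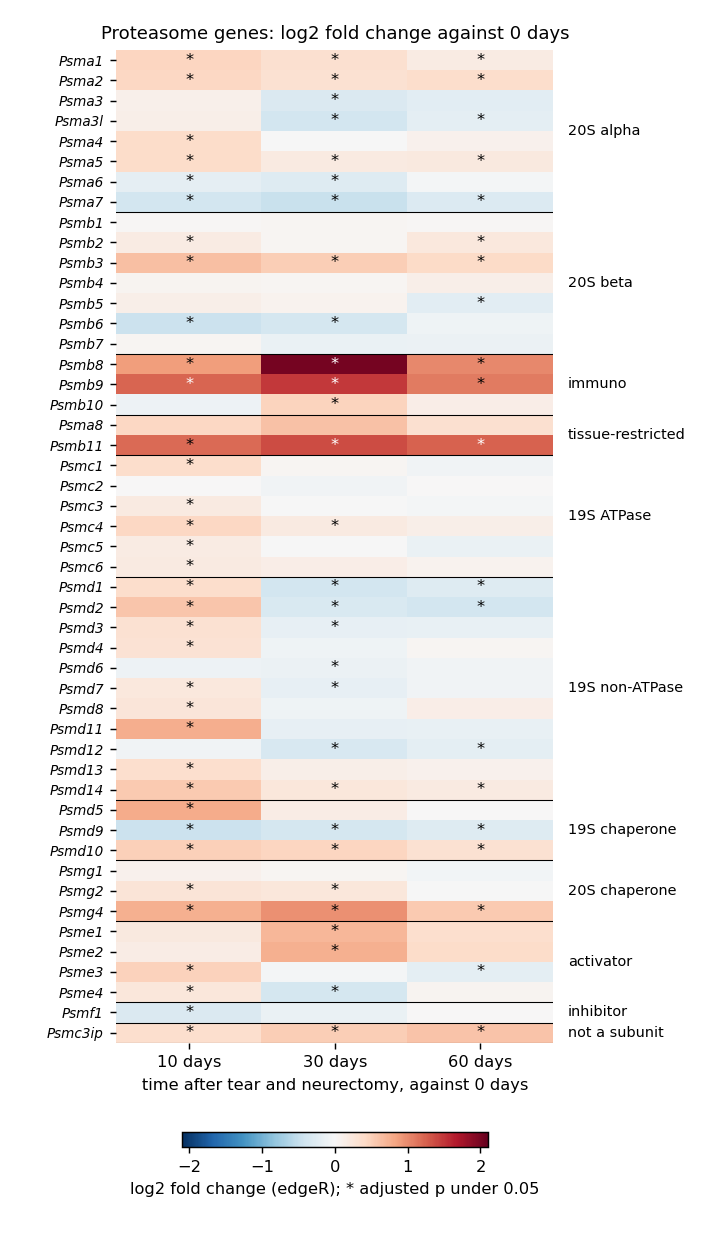
Log2 fold change of each of the 49 proteasome rows (rows, grouped by role) at 10, 30 and 60 days against 0 days (columns), with TMM scaling; colour runs from blue (lower) to red (higher), and an asterisk marks an edgeR adjusted p under 0.05. The 19S rows are mostly red at 10 days and pale or blue later, and Psmb8 and Psmb9 are red at all 3 times; with library totals alone no member was lower than at 0 days.

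The sequence at the start sites of several members is shown to let the letters be read beside their transcript levels: the immunoproteasome subunits and Psme2 for the interferon motif, Psmg4 because it shares that motif, and Psmd11 and Psmb6 as the cap and core subunits with the highest and the lowest log2 fold change at 10 days under TMM scaling (with library totals Psmb6 was 0.20, no longer lower). Each window runs from 250 bases before the start to 50 after it, as given for RefSeq on the rat build GRCr8, 5′ to 3′ on the gene's strand. Capitals mark matches to the motifs searched on both strands: GAAA, any 2 bases and GAAA (core of the interferon-stimulated response element), TTCNNNGAA (interferon-gamma activated sequence), TGACNNNGC (core of the antioxidant response element, bound by NFE2L1 and NFE2L2), CCAAT (bound by NF-Y) and CCGGAAG (bound by ETS factors).
Psmb8, chr20:4656982-4657281, minus strand: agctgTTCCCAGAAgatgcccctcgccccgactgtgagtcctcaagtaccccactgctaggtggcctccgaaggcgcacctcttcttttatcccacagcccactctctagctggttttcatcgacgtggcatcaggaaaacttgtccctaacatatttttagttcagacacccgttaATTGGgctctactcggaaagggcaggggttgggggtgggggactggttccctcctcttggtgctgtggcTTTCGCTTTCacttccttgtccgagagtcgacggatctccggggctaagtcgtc
Psmb9, chr20:4668750-4669049, plus strand: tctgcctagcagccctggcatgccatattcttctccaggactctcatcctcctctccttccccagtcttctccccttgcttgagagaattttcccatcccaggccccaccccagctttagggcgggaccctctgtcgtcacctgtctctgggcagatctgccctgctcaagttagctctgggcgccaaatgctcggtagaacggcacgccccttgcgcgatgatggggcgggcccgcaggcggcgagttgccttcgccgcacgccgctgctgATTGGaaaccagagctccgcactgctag
Psmb10, chr19:50743243-50743542, minus strand: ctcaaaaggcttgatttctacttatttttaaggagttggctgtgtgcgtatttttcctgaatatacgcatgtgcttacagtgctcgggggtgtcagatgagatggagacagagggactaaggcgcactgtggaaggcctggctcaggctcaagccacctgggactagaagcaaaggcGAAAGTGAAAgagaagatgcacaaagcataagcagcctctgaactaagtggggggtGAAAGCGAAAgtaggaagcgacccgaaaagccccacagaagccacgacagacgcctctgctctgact
Psme2, chr15:33052702-33053001, minus strand: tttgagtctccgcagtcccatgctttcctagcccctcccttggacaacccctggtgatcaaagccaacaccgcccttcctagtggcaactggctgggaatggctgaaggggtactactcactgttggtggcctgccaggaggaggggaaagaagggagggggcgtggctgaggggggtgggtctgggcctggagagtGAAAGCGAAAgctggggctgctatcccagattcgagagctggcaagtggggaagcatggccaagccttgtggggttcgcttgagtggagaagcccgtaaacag
Psmg4, chr17:30923324-30923623, minus strand: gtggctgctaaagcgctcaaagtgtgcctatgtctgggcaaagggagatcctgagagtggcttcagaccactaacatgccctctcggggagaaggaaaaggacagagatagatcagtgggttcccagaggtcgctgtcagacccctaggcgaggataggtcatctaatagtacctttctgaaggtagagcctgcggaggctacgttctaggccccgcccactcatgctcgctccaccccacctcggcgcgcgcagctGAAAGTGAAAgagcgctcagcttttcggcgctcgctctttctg
Psmd11, chr10:65932093-65932392, plus strand: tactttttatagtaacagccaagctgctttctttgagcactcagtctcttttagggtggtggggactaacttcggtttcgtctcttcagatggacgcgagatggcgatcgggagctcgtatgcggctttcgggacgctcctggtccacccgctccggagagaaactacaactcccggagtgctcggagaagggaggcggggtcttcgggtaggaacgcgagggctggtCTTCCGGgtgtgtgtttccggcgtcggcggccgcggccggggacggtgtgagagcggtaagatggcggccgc
Psmb6, chr10:55737638-55737937, plus strand: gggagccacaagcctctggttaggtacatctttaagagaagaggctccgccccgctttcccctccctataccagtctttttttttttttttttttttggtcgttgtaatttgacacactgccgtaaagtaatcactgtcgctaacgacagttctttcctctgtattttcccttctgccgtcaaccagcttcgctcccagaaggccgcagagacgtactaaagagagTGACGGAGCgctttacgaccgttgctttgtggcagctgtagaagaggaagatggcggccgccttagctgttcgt

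Psmb8 and Psmb9 lie near each other on chromosome 20, and the Psmb8 window held an interferon core match on the reverse strand at position -4 and an interferon-gamma motif at -245, counted from the start. The Psmb9 window held only a CCAAT match. Psmb10 held 2 interferon core matches, at -73 and -17, Psme2 held 1 at -53 and Psmg4 held 1 at 8, just past its start. The window of Psme1, which is not printed, held no match to any motif searched. The Psmb6 window held the antioxidant core at -24 and the Psmd11 window an ETS match at -22. Windows were found for 43 of the 49 members. The interferon core was in 7 of the 43 (16.3%), namely Psma4, Psmb3, Psmb8, Psmb10, Psmd7, Psme2 and Psmg4. Of these, Psma4, Psmb3 and Psmd7 are not printed. The core was in 2.76% of the promoters of genes tested and 3.77% of all 27457 promoters. The ETS core was in 34.9% of member windows, 16.8% of those of genes tested and 9.22% of all. CCAAT was in 48.8% of member windows, 37.2% of those of genes tested and 37.7% of all. The antioxidant core was in 18.6%, 14.8% and 12.2%, and the interferon-gamma motif in 9.3%, 6.46% and 8.68%. A match describes letters in the window and is not evidence of a site in use.

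The alpha and beta subunits of the constitutive 20S core did not move as one. At 10 days 6 of the 15 rows were higher (33.3% of all genes), 3 lower (29.4%) and 6 were not called. Their median log2 fold change was 0.12, with a range of -0.45 to 0.63. At 30 days 4 were higher and 5 lower (7 and 4 with upper-quartile factors), and at 60 days 5 were higher and 3 lower (7 and 0). Of all genes 33.7% were higher and 30.9% lower at 30 days, and 29.9% and 29.1% at 60 days. In either direction 60%, 60% and 53.3% of the core rows were called at the 3 times, close to 62.7%, 64.6% and 59% of all genes. With library totals 15, 11 and 13 rows were higher at the 3 times and 0 were lower. Psmb1, Psmb4 and Psmb7, all of the beta ring, were not called against 0 days at any time with TMM scaling, with 10-day values of 0.03, 0.06 and 0.04. Psmb4 was called higher with upper-quartile factors at 30 and 60 days (adjusted p 0.0326 and 0.0017), and Psmb7 lower at 30 days with RLE factors (0.0401) and DESeq2 (0.00903). The summed level of the 15 rows was 2382 to 2589 CPM at 0 days and 2433 to 2741 at 10 days, so these groups overlapped.

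Psma1 and Psma2, both parts of the alpha ring, were higher at all 3 times. Psma1 stood at 131, 127, 136 and 126 CPM in the 0-day libraries, 164, 184, 173 and 191 at 10 days, 160, 164, 163 and 171 at 30 days and 148, 150, 151 and 139 at 60 days. Every operated library lay above every unoperated one. The log2 fold changes were 0.46 ± 0.06 (SE, adjusted p 5.81e-06), 0.34 and 0.18. The 60-day call of Psma1 was lost without the filter for low counts (0.158, edgeR adjusted p 0.056). Psma2 stood at 98.95, 96.7, 102 and 95.4 CPM at 0 days, 121, 138, 126 and 145 at 10 days, 126, 117, 125 and 123 at 30 days and 129, 133, 126 and 121 at 60 days, again without overlap between unoperated and operated libraries. Its log2 fold changes were 0.43 ± 0.06 (adjusted p 1.78e-05), 0.32 and 0.37. Psma5, another alpha subunit, was also higher at all 3 times, by 0.38, 0.18 and 0.20 on the log2 scale. Psma4, of the same ring, was higher by 0.38 at 10 days (adjusted p 0.000235) and not called at 30 or 60 days (-0.01 and 0.10).

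Psma7, also of the alpha ring, went the other way. Its level was 220, 221, 239 and 236 CPM at 0 days, 167, 171, 175 and 187 at 10 days, 158, 165, 170 and 169 at 30 days and 175, 195, 197 and 184 at 60 days, and every operated library was below every unoperated one. It fell by 0.39 ± 0.06 (adjusted p 3.97e-05), 0.47 and 0.28 on the log2 scale at the 3 times, but with library totals these values turned positive, to 0.27, 0.025 and 0.13, and with upper-quartile factors the 60-day value was -0.14 and the call was lost (adjusted p 0.0686). Psma6, also an alpha subunit, fell by 0.20 and 0.27 at 10 and 30 days, with values of 0.46 and 0.23 with library totals. Psma3 and Psma3l, whose separate values are uncertain, were not called at 10 days (0.10 and 0.12) and fell by 0.30 and 0.39 at 30 days, with values of 0.21 and 0.10 with library totals, and the Psma3 call was lost with upper-quartile factors (adjusted p 0.124). At 60 days Psma3l alone of this pair was called, lower by a log2 difference of -0.20 (adjusted p 0.0251). That call was lost with upper-quartile factors (adjusted p 0.49) and in 6 of 16 fits that left out 1 library. The value was 0.21 with library totals. Psma3 stood at -0.21 (adjusted p 0.0685). It passed with replicate number as a block (adjusted p 0.0452), with the title letter (0.0361) and in 2 fits that left out 1 library. Summing both rows, a choice made after seeing the data, gave a lower call at 60 days (-0.205, adjusted p 0.0155).

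Among the beta subunits Psmb3, which has no catalytic site, showed the largest rise. Its level was 79.1, 78.7, 86.7 and 78.9 CPM at 0 days, 117, 139, 121 and 124 at 10 days, 116, 108, 116 and 122 at 30 days and 107, 112, 109 and 102 at 60 days. No operated library overlapped an unoperated one, and the log2 fold changes were 0.63 ± 0.07 (adjusted p 4.18e-07), 0.52 and 0.41. Psmb2, a further non-catalytic subunit, was at 72.6, 64.0, 70.4 and 66.7 CPM at 0 days, 72.9, 79.7, 74.5 and 80.2 at 10 days, 66.0, 67.1, 76.1 and 72.0 at 30 days and 75.2, 84.7, 84.2 and 74.2 at 60 days. It was higher by 0.17 ± 0.07 at 10 days (adjusted p 0.0442) and 0.22 at 60 days (0.0129). The groups at 10 and 0 days lay side by side with almost no gap, and the 10-day call was lost in 8 of 16 fits that each left out 1 library (adjusted p up to 0.139).

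The 3 catalytic subunits of the constitutive core differed from one another. Psmb6, which cuts after acidic residues, was at 225, 211, 228 and 215 CPM at 0 days, 158, 162, 160 and 161 at 10 days, 149, 165, 190 and 177 at 30 days and 194, 223, 218 and 190 at 60 days. The 10-day and 30-day libraries lay below all unoperated ones and the 60-day libraries overlapped them. Psmb6 fell by 0.45 ± 0.08 at 10 days (adjusted p 7.04e-05) and by 0.37 at 30 days with TMM scaling, but the values were 0.20 and 0.12 with library totals. At 60 days it was higher than at 10 days by 0.36 (adjusted p 0.000658).

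Psmb5, the chymotrypsin-like subunit, was at 185, 179, 186 and 182 CPM at 0 days, 191, 221, 189.8 and 196 at 10 days, 186, 176, 201 and 208 at 30 days and 168, 164, 158 and 137 at 60 days. The 60-day libraries were the lowest of all 16. Psmb5 was not called at 10 or 30 days (log2 fold changes 0.12 and 0.07) and fell by 0.22 ± 0.08 at 60 days (adjusted p 0.0193), but the value was 0.18 with library totals. The call was lost without the 60-day replicate 4 (adjusted p 0.12) and without each of the 0-day replicates 1, 3 and 4 (0.0542 to 0.068). Psmb7, the trypsin-like subunit, was at 364, 349, 361 and 348 CPM at 0 days, 347, 372, 359.8 and 381 at 10 days, 320.5, 310.2, 344 and 319.7 at 30 days and 329, 347, 331 and 301 at 60 days. Its differences from 0 days, 0.04, -0.13 and -0.12, did not pass the test.

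Most genes of the 19S cap were higher at 10 days and lower again at 30 days. At 10 days 14 of its 17 genes were higher (33.3% of all genes), 0 were lower (29.4%) and 3 were not called (Psmc2, Psmd6 and Psmd12). Their median log2 fold change was 0.30. RLE and DESeq2 scaling each gave 12 higher and 1 lower, and library totals 17 higher. Between 30 and 10 days 14 of the 17 were lower (24.3% of all genes) and 0 higher (23%), with a median of -0.31. The count of lower genes was 12 with upper-quartile factors and 17 with library totals. Against 0 days the cap then had 2 genes higher and 6 lower at 30 days (5 and 3 with upper-quartile factors, 15 and 0 with library totals). At 60 days it had 1 higher and 3 lower (6 and 1, and 15 and 0). With TMM scaling 33.7% of all genes were higher and 30.9% lower at 30 days, and 29.9% and 29.1% at 60 days. Summed over the 17 genes, the level was 3331 to 3383 CPM at 0 days, 3937 to 4411 at 10 days, 3031 to 3246 at 30 days and 2861 to 3373 at 60 days. All 10-day libraries lay above all others.

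Psmd11, a lid subunit that clamps the cap to the core, showed the largest rise of the cap. Its level was 199, 198, 184 and 179 CPM at 0 days, 309, 349, 313 and 325 at 10 days, 157, 174, 165 and 176 at 30 days and 207, 166, 162 and 148 at 60 days. The 10-day libraries stood far above the rest, and the 30-day libraries were just below the unoperated ones. The log2 fold change was 0.77 ± 0.09 at 10 days (adjusted p 1.26e-06). It was -0.18 at 30 days (0.0901) and -0.15 at 60 days (0.153), neither passing the test with all libraries fitted together. Without the 60-day replicate 1, the highest of its group, both were called lower (-0.18, adjusted p 0.0232, and -0.26, 0.0047). A fit of the 2 compared groups also called the 30-day value (-0.18, adjusted p 0.0319). With library totals the values were 0.32 and 0.25. The fall from 10 to 30 days was -0.95 ± 0.09 (adjusted p 7.37e-07).

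Psmd2 and Psmd1, the scaffolds of the cap's base on which substrates and shuttle proteins dock, rose and then went below the unoperated level. Psmd2 was at 376, 398, 377 and 389 CPM at 0 days, 547, 630.1, 602 and 525 at 10 days, 308, 296, 299.8 and 325 at 30 days and 341, 288, 291 and 263 at 60 days. Its 4 groups fell into 3 separate ranges, with 10 days highest and 30 and 60 days together lowest. Psmd2 was higher by 0.58 ± 0.08 at 10 days (adjusted p 1.19e-05) and fell by 0.33 at 30 days and 0.38 at 60 days, whereas with library totals the later values were 0.17 and 0.024. The difference between 30 and 10 days was -0.91 ± 0.08 (adjusted p 5.65e-07).

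Psmd1 was at 302, 319, 285 and 278 CPM at 0 days, 370.2, 405, 399 and 350 at 10 days, 216, 232, 215 and 238 at 30 days and 278, 239, 257 and 205 at 60 days. All 10-day libraries were above, and all 30-day libraries below, the unoperated range. It was higher by 0.37 ± 0.09 at 10 days (adjusted p 0.00163) and fell by 0.39 at 30 days and 0.27 at 60 days, whereas with library totals the later values were 0.10 and 0.13. The 60-day call was lost without the 0-day replicate 2 (adjusted p 0.0611) and without the 60-day replicate 4 (0.0719). The lid subunits Psmd3 and Psmd7 were likewise higher at 10 days, by 0.31 and 0.22, and fell at 30 days, by 0.17 each, though with library totals the values were 0.32 and 0.33 and with upper-quartile factors neither was called. The Psmd3 call at 30 days was lost in 12 of the 16 fits that left out 1 library (adjusted p up to 0.144), and that of Psmd7 without the 30-day replicate 2 (0.063) and the 0-day replicates 2, 3 and 4 (up to 0.0892).

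The ubiquitin receptor Psmd4 and the lid subunits Psmd8 and Psmd13 were called at 10 days alone with TMM scaling, higher by 0.30, 0.25 and 0.36, and each was lower at 30 than at 10 days. Not every lid subunit followed. Psmd14, the enzyme that strips ubiquitin from substrates, was higher at all 3 times, by 0.54 ± 0.06 (adjusted p 2.95e-07), 0.23 and 0.19, the one non-ATPase gene of the cap that was higher at 30 days. Psmd12 was not called at 10 days (-0.07) and fell by 0.34 at 30 days and 0.20 at 60 days, with values of 0.16 and 0.21 with library totals. The 60-day call was lost with upper-quartile factors (adjusted p 0.421) and in 4 of 16 fits that left out 1 library (up to 0.118). Psmd6 was at 162, 155, 156 and 150.0 CPM at 0 days, 138, 148, 145 and 149 at 10 days, 143, 138, 147 and 143 at 30 days and 152, 146, 153 and 141 at 60 days. The narrow gap at 30 days gave a log2 fold change of -0.13 (adjusted p 0.0484; 0.37 with library totals), and that call was lost in 13 of 16 fits that left out 1 library (adjusted p up to 0.163).

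In the ATPase ring 5 of 6 genes were higher at 10 days with a median of 0.19, beside 9 of 11 and 0.31 for the other cap genes, a difference that was not tested. Psmc4 was at 114, 114, 115 and 111 CPM at 0 days, 145, 177, 141 and 154 at 10 days, 127, 118, 135 and 134 at 30 days and 125, 129, 122 and 118 at 60 days. Its log2 fold change was 0.44 ± 0.07 at 10 days (adjusted p 4.59e-05) and 0.18 at 30 days (0.0348, lost in 7 of 16 fits without 1 library). Psmc1 was at 233, 235, 243 and 229 CPM at 0 days, 281, 313, 293 and 322 at 10 days, 247, 231, 241 and 253 at 30 days and 248, 210.2, 229.9 and 201 at 60 days. Psmc1 passed the test at 10 days alone, by 0.36 ± 0.07 (adjusted p 0.000361), and the other groups overlapped. Psmc2 was at 231, 239, 238 and 235 CPM at 0 days and 218, 246, 236 and 246 at 10 days, a log2 difference of 0.01 ± 0.06 (adjusted p 0.932), and it was not called at any time. The ATPases Psmc3, Psmc5 and Psmc6 were higher at 10 days by 0.19, 0.17 and 0.19 (adjusted p 0.0125, 0.0366 and 0.0246) and, with TMM scaling, were not called at 30 or 60 days. The Psmc5 call was lost in 5 of 16 fits that left out 1 library (adjusted p up to 0.0946) and the Psmc6 call in 4 (up to 0.104). Both were also lost with RLE factors (adjusted p 0.0989 and 0.0733) and with DESeq2 (0.0573 and 0.0526).

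**Figure D2:**
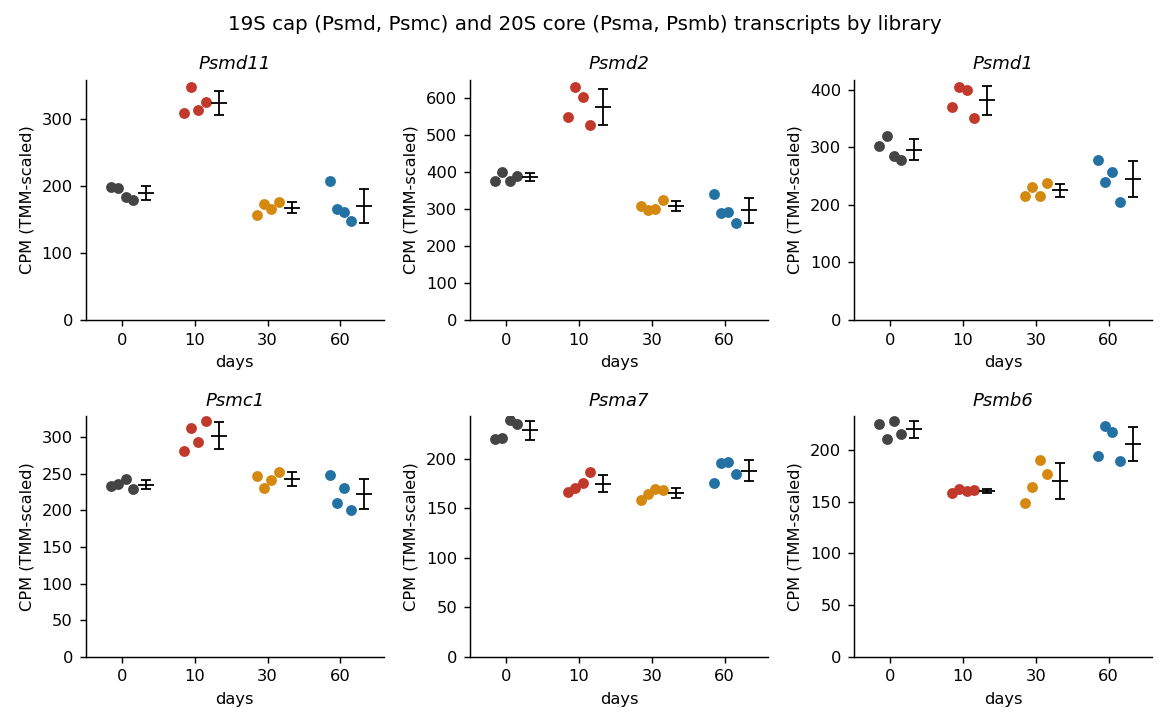
TMM-scaled CPM (y axis, from 0) of 4 cap genes (Psmd11, Psmd2, Psmd1, Psmc1) and 2 core genes (Psma7, Psmb6) at 0, 10, 30 and 60 days; each point is 1 library and the bar beside each group is the mean ± SD (n = 4). The cap genes are highest in all 4 libraries of 10 days, where both core genes are low. Psma7 and Psmb6 had the smallest log2 fold changes of the alpha and beta rows at 10 days. Of all 15 core rows 6 were called higher then and 3 lower. With library totals Psma7 and Psmb6 were not below 0 days.

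The ratio of the summed cap level to the summed core level within a library does not depend on the scaling between libraries. It was 1.34, 1.42, 1.30 and 1.36 at 0 days, 1.62, 1.65, 1.62 and 1.51 at 10 days, 1.32, 1.32, 1.28 and 1.33 at 30 days and 1.38, 1.23, 1.26 and 1.23 at 60 days. The means were 1.36 ± 0.0497 (SD, n = 4), 1.60 ± 0.0610, 1.31 ± 0.0223 and 1.28 ± 0.0703. The 10-day libraries were above all 12 others. These sums weigh abundant and long transcripts most and are given as a description, with no test.

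**Figure D3:**
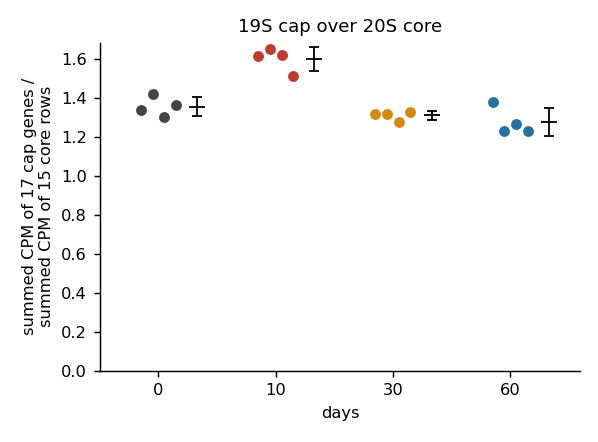
Summed CPM of the 17 cap genes divided by the summed CPM of the 15 constitutive core rows (y axis, from 0) at 0, 10, 30 and 60 days; points are libraries and the bar is the mean ± SD (n = 4). The 4 libraries of 10 days, at 1.51 to 1.65, are above all others.

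Chaperones that build the particle changed in both directions. Of the cap chaperones, Psmd5 was at 36.2, 31.6, 33.2 and 37.7 CPM at 0 days, 55.3, 58.9, 65.0 and 59.1 at 10 days, 37.4, 38.4, 38.7 and 39.9 at 30 days and 37.9, 34.6, 36.6 and 30.8 at 60 days. The 10-day libraries stood apart and the others nearly coincided. Its log2 fold change of 0.78 ± 0.08 at 10 days (adjusted p 1.85e-07) was close to that of Psmd11, and it was not called at 30 or 60 days. Psmd10, also known as gankyrin, was higher at all 3 times, by 0.49, 0.45 and 0.32, the last lost without the 60-day replicate 1 (adjusted p 0.0592) or 3 (0.0625). Psmd9 fell by 0.44 ± 0.09 (adjusted p 0.00027), 0.37 and 0.27 at the 3 times, but the values were 0.21, 0.12 and 0.14 with library totals, and the 60-day call was lost without the 0-day replicate 1 (adjusted p 0.0757) or 2 (0.0593) or the 60-day replicate 4 (0.0616).

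Psmg4, which acts with Psmg3 in assembling the alpha ring, had the largest rise of the chaperones of the core. It was at 14.3, 14.1, 18.7 and 17.8 CPM at 0 days, 24.0, 28.1, 28.2 and 29.0 at 10 days, 32.4, 29.3, 31.6 and 32.2 at 30 days and 21.8, 25.9, 24.3 and 22.8 at 60 days. All operated libraries were above all unoperated ones, and 30 days was highest. The log2 fold changes were 0.75 ± 0.10 (adjusted p 4.71e-06), 0.95 ± 0.10 (4.32e-07) and 0.55 (0.000198), and it was lower at 60 than at 30 days by -0.41 (0.00689). Psmg2 was higher at 10 and 30 days, by 0.26 and 0.24, whereas its partner Psmg1 was not called at any time (0.08, 0.04 and -0.06).

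The 4 activators split by kind. Psme3, which forms a nuclear activator, was at 85.2, 84.8, 82.8 and 79.1 CPM at 0 days, 105, 126, 116 and 119 at 10 days, 79.4, 79.9, 76.1 and 88.7 at 30 days and 84.1, 69.8, 72.2 and 62.7 at 60 days. Its 10-day libraries stood above all others, with a log2 fold change of 0.49 ± 0.08 (adjusted p 7.5e-05). At 60 days it fell by 0.20 (adjusted p 0.0482; value 0.20 with library totals), and this call was lost in 11 of 16 fits that left out 1 library (adjusted p up to 0.234).

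Psme4, a single-chain nuclear activator, was at 467, 443, 452 and 508 CPM at 0 days, 575, 517, 536 and 579 at 10 days, 378, 363, 364 and 344 at 30 days and 442, 519, 528 and 461 at 60 days. The 30-day libraries were the lowest of all. It was higher at 10 days by 0.24 ± 0.08 (adjusted p 0.0122) and fell by 0.37 at 30 days (0.000532), though the value was 0.13 with library totals. It was higher again at 60 than at 30 days by 0.43 (adjusted p 0.00111). Psmf1, whose protein PI31 inhibits the core in the test tube, fell by 0.30 at 10 days (adjusted p 0.00258), with a value of 0.36 with library totals, and was not called later.

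Psme1 and Psme2, the interferon-inducible activator, were raised at 30 days. With library totals both were also called higher at 10 days (0.87 and 0.82) and at 60 days (0.77 and 0.80). Psme1 was at 95.6, 121, 127 and 107 CPM at 0 days, 112, 129, 137 and 142 at 10 days, 206, 204, 143 and 175 at 30 days and 111, 149, 195 and 123 at 60 days. The 30-day libraries did not overlap those of 0 or 10 days, and the 60-day libraries were spread over both ranges. The log2 fold change was 0.69 ± 0.16 at 30 days (adjusted p 0.00122), against 0.21 at 10 days (0.268) and 0.36 at 60 days (0.0609), which did not pass. The 60-day difference passed with upper-quartile factors (0.50, adjusted p 0.0133) and in 4 of 16 fits that left out 1 library (adjusted p 0.0167 to 0.0482). The difference of 0.49 between 30 and 10 days (adjusted p 0.0186) was lost without the 10-day replicate 1 (0.056) or the 30-day replicate 1 (0.0548) or 2 (0.056).

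Psme2 was at 45.8, 66.1, 66.8 and 52.6 CPM at 0 days, 54.7, 63.1, 70.2 and 70.0 at 10 days, 106, 115, 82.9 and 85.1 at 30 days and 53.7, 83.7, 105 and 61.1 at 60 days. In each of the 4 groups the library lowest in Psme1 was also the lowest in Psme2. It was higher at 30 days by 0.75 ± 0.19 (adjusted p 0.00257), against 0.16 (0.484) at 10 days and 0.39 (0.0868) at 60 days. The 60-day difference passed with upper-quartile factors (0.53, adjusted p 0.0232) and in 2 fits that left out 1 library (0.0219 and 0.0453). Its difference between 30 and 10 days, 0.60 (adjusted p 0.0161), was lost without the 30-day replicate 2 (0.0514). With library totals neither Psme1 nor Psme2 was called higher at 30 than at 10 days.

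Apart from Psmb11, no member had larger fold changes against 0 days than the immunoproteasome subunits Psmb8 and Psmb9 at any of the 3 times. Psmb8, which replaces Psmb5, was at 4.89, 6.46, 7.54 and 6.18 CPM at 0 days, 9.52, 9.10, 12.2 and 15.2 at 10 days, 30.6, 25.2, 17.4 and 28.5 at 30 days and 8.76, 12.1, 12.9 and 16.9 at 60 days. Every operated library was above every unoperated one, and the 30-day libraries were above all others. The log2 fold changes were 0.87 ± 0.22 at 10 days (adjusted p 0.00284), 2.01 ± 0.22 at 30 days (1.31e-06) and 1.01 ± 0.23 at 60 days (0.00122). Psmb8 was higher at 30 than at 10 days by 1.14 ± 0.21 (adjusted p 0.000377) and lower at 60 than at 30 days by -1.002 ± 0.21 (0.00368).

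Psmb9, which replaces Psmb6, was at 4.33, 4.55, 5.40 and 5.75 CPM at 0 days, 10.7, 9.62, 12.6 and 13.8 at 10 days, 13.5, 14.0, 11.6 and 17.2 at 30 days and 9.08, 9.64, 10.99 and 13.1 at 60 days. No operated library came down to the unoperated range, while the 3 operated groups overlapped. It was higher by 1.22 ± 0.16 (adjusted p 3.93e-06), 1.49 ± 0.16 (5.29e-07) and 1.10 ± 0.16 (2.27e-05), and no difference among the operated groups passed the test with TMM scaling and all libraries. The value of -0.39 between 60 and 30 days (adjusted p 0.067) passed without the 30-day replicate 3 (0.0374) or the 60-day replicate 4 (0.033), and with library totals all 3 immunoproteasome genes were lower at 60 than at 30 days.

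Psmb10, which replaces Psmb7, was at 13.6, 13.5, 15.5 and 15.8 CPM at 0 days, 12.4, 13.1, 13.4 and 15.4 at 10 days, 20.1, 19.8, 21.6 and 18.7 at 30 days and 11.2, 18.1, 17.3 and 17.7 at 60 days. All 4 libraries of 30 days lay above the unoperated range and those of 10 days overlapped it, while 3 of the 60-day libraries lay above it and 1 below. The log2 fold changes were -0.10 at 10 days (adjusted p 0.491; 0.56 with library totals), 0.46 ± 0.13 at 30 days (0.00426) and 0.14 at 60 days (0.358). Without the 60-day replicate 1, the lowest of its group, the 60-day value was 0.28 and passed the test (adjusted p 0.0168), as did a difference of 0.38 between 60 and 10 days (0.00183). Psmb10 was higher at 30 than at 10 days by 0.56 ± 0.12 (adjusted p 0.00143).

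**Figure D4:**
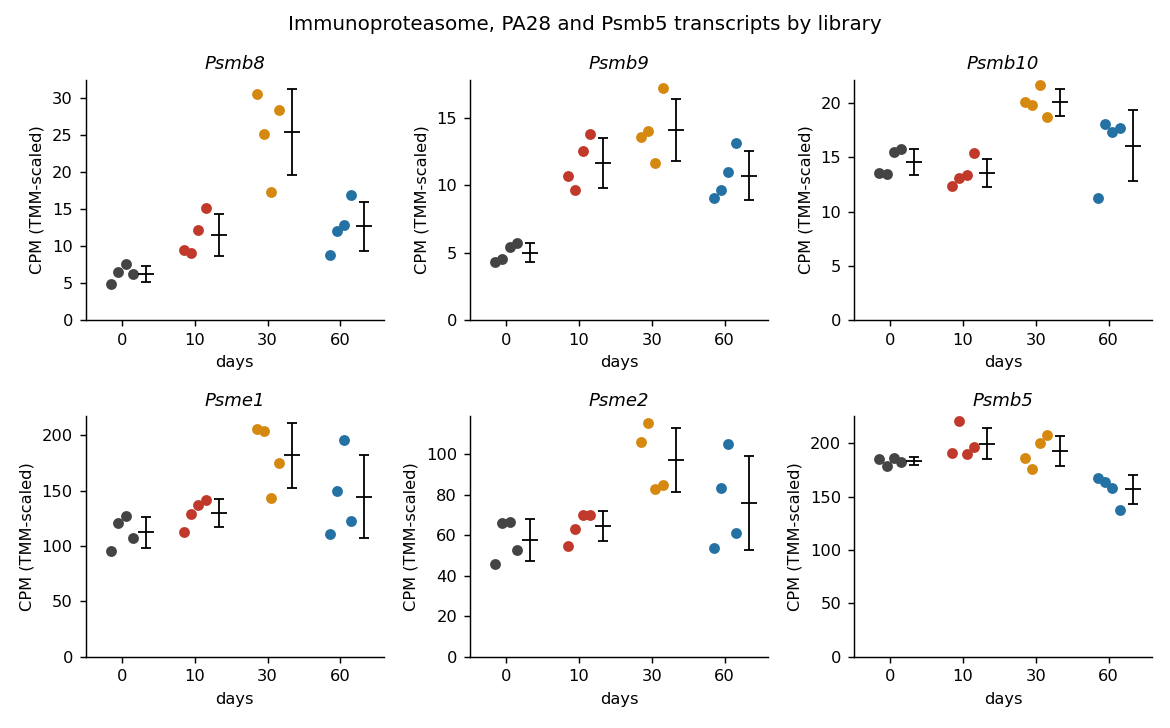
TMM-scaled CPM (y axis, from 0) of Psmb8, Psmb9, Psmb10, Psme1, Psme2 and Psmb5 at 0, 10, 30 and 60 days; points are libraries and the bar is the mean ± SD (n = 4). The 30-day libraries of Psmb8, Psmb10, Psme1 and Psme2 are above those of 0 and 10 days, Psmb9 is already raised at 10 days, and Psmb5 moves little by comparison.

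The share of each replacement subunit against the subunit it replaces was taken within each library, which removes the scaling. As transcripts differ in length, these ratios are read across time and not between pairs. Psmb8 had 2.65, 3.62, 4.06 and 3.41 fragments per 100 of Psmb5 at 0 days, 5.00, 4.13, 6.45 and 7.74 at 10 days, 16.4, 14.3, 8.67 and 13.7 at 30 days and 5.23, 7.41, 8.18 and 12.3 at 60 days. The means were 3.44 ± 0.588 (SD, n = 4), 5.83 ± 1.59, 13.3 ± 3.29 and 8.29 ± 2.97, so that the ratio was 1.67-, 3.81- and 2.33-fold that of 0 days on the log2 mean. The 10-day libraries began just above the highest unoperated one, and none overlapped.

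Psmb9 had 1.94, 2.16, 2.37 and 2.68 fragments per 100 of Psmb6 at 0 days, 6.77, 5.95, 7.83 and 8.56 at 10 days, 9.12, 8.54, 6.13 and 9.71 at 30 days and 4.69, 4.34, 5.06 and 6.92 at 60 days. All operated libraries were above all unoperated ones, and the ratio was 3.17-, 3.63- and 2.27-fold higher. With TMM scaling the 10-day ratio joins a rise of Psmb9 with a lower level of Psmb6. With library totals Psmb6 was itself higher at 10 days (0.20, edgeR adjusted p 0.0114), so this split depends on the scaling. For both pairs each of the 3 differences from 0 days had a two-sided exact permutation p of 0.0286, the smallest that 4 against 4 allows (adjusted p 0.0367 over the 9 ratio tests).

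Psmb10 had 3.73, 3.87, 4.29 and 4.55 fragments per 100 of Psmb7 at 0 days, 3.57, 3.53, 3.73 and 4.05 at 10 days, 6.28, 6.39, 6.29 and 5.85 at 30 days and 3.42, 5.22, 5.23 and 5.88 at 60 days. Only 30 days was wholly above 0 days, 1.51-fold (exact permutation p 0.0286, adjusted 0.0367). The fold was 0.906 at 10 days (exact permutation p 0.114, adjusted 0.129) and 1.18 at 60 days (exact permutation p 0.2, adjusted 0.2), where replicate 1 lay below all unoperated libraries and the other 3 above them.

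**Figure D5:**
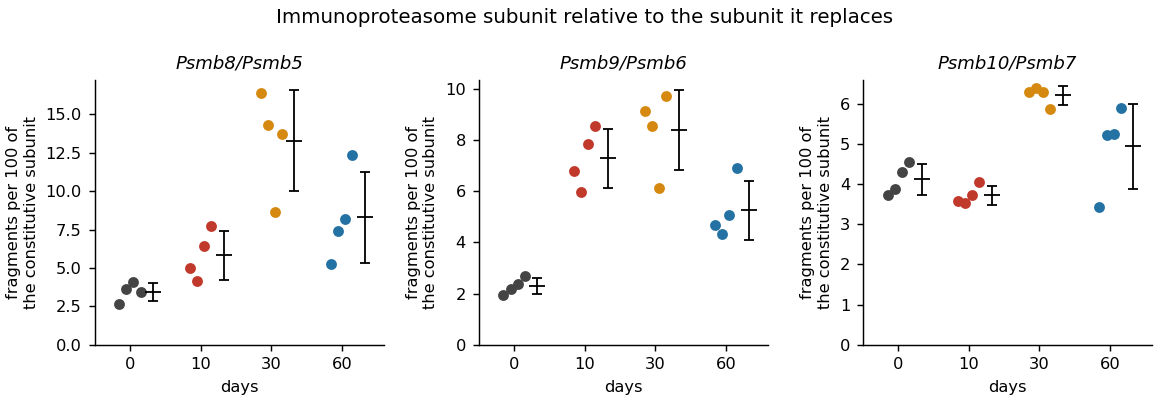
Fragments of Psmb8, Psmb9 and Psmb10 per 100 fragments of the constitutive subunit each replaces (y axis, from 0) at 0, 10, 30 and 60 days; points are libraries and the bar is the mean ± SD (n = 4). Psmb8/Psmb5 and Psmb9/Psmb6 are above the unoperated range at all 3 times, and Psmb10/Psmb7 as a whole group only at 30 days.

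Markers of leukocytes, which carry immunoproteasome subunits, were mostly higher in the operated groups, as were Psmb8 and Psmb9. With TMM scaling Psmb10 was called higher at 30 days only, and with library totals also at 10 and 60 days (0.56 and 0.55). Of 17 leukocyte markers tested, 15 were higher at 10 days (33.3% of all genes), 17 at 30 days (33.7%) and 16 at 60 days (29.9%) and 0 lower. Their median log2 fold changes were 1.61, 1.89 and 1.53. Ptprc, the common leukocyte antigen, was higher by 1.60, 1.89 and 1.56. None of the 21 markers in the table was at 0 in all libraries, and Cd3d, Cd79b, Ms4a1 and Ncr1 were too low to test. Between 30 and 10 days, where Psmb8 and Psmb10 differed, 2 of the 17 markers were higher, and between 60 and 30 days, where Psmb8 fell, 0 of the 17 were called by edgeR (1 at an unadjusted p under 0.05, and 2 lower by DESeq2). The markers had median log2 fold changes of 0.16 and -0.25 in these comparisons. The part of leukocytes in the immunoproteasome result was not tested.

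Psmb11 and Psma8, the tissue-restricted core subunits, were near the limit of these libraries. Psmb11 was at 0.506, 0.440, 0.402 and 0.431 CPM at 0 days, 0.928, 1.02, 0.692 and 1.41 at 10 days, 1.24, 0.997, 1.28 and 1.13 at 30 days and 0.83, 1.51, 0.76 and 1.11 at 60 days, where 3 fragments in a library are worth 0.0752 to 0.175 CPM. All operated libraries were above all unoperated ones, and the log2 fold changes were 1.19 ± 0.28 (adjusted p 0.00134), 1.37 (0.000398) and 1.24 (0.00156). Psma8 was not called at any time (0.43, 0.61 and 0.34 on the log2 scale). Psmc3ip, which is no subunit, was higher by 0.35, 0.51 and 0.60.

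Other genes of the pathway were read from lists of their own. Of 4 further cap and assembly genes tested, 2 were higher and 1 lower at 10 days (33.3% and 29.4% of all genes), 0 and 2 at 30 days (33.7% and 30.9%) and 1 and 1 at 60 days (29.9% and 29.1%). Usp14, a deubiquitinase that binds Psmd2's protein, and Adrm1, a ubiquitin receptor, shared the pattern of the cap at 10 days, 0.43 and 0.34, and were lower at 30 than at 10 days by -0.33 and -0.55. Uchl5, a deubiquitinase that binds Adrm1's protein, was -0.05 at 10 days and fell by 0.31 and 0.40 later (0.18 and 0.01 with library totals). Shfm1, a small lid subunit, fell by 0.19 at 10 days (0.47 with library totals) and rose by 0.30 at 60 days. With library totals 4 were higher at 10 days, 4 at 30 days and 3 at 60 days, with 0 lower.

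Of 14 ubiquitin and shuttle genes, 6 were higher and 1 lower at 10 days (33.3% and 29.4% of all genes), 2 and 6 at 30 days (33.7% and 30.9%) and 1 and 5 at 60 days (29.9% and 29.1%). At 30 against 10 days 0 were higher (23% of all genes) and 7 lower (24.3%). With library totals 14, 9 and 8 were higher and 0, 1 and 3 lower at the 3 times, and with upper-quartile factors 4 were higher and 4 lower at 30 days and 3 and 5 at 60 days. Vcp, the ATPase that extracts ubiquitinated proteins, was higher by 0.89 ± 0.10 at 10 days (adjusted p 1.27e-06) and 0.14 at 30 days, not called. The shuttle Rad23b was higher by 0.50 at 10 days and fell by 0.22 and 0.57 later (0.28 and -0.17 with library totals).

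Of 4 regulators of proteasome genes tested, 2 were higher and 1 lower at 10 days (33.3% and 29.4% of all genes). At 30 days (33.7% and 30.9%) and at 60 days (29.9% and 29.1%) 1 was higher and 3 were lower. Ddi2, the protease that releases NFE2L1, was higher by 0.37 ± 0.11 at 10 days (adjusted p 0.00889) and fell by 0.48 and 1.09 ± 0.12 later (0.01 and -0.68 with library totals), with a difference of -0.85 between 30 and 10 days (1.74e-05). Nfe2l2 was higher at all 3 times, by 0.56, 0.42 and 0.28, and Nfyb, a subunit of NF-Y, fell by 0.69, 0.44 and 0.36 (-0.04, 0.06 and 0.05 with library totals). That scaling gave 3, 2 and 2 regulators higher and 0, 0 and 1 lower at the 3 times. Nfe2l1 itself was not analysed here.

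Of 12 genes of interferon signalling and antigen processing, 9 were higher and 0 lower at 10 and at 30 days, and 8 higher and 2 lower at 60 days (9 and 0 with library totals). Of all genes 33.3%, 33.7% and 29.9% were higher at these times and 29.4%, 30.9% and 29.1% lower. B2m, the light chain of class I molecules, was higher by 2.21, 2.57 and 1.06, and Tap1, the peptide transporter encoded beside Psmb9, by 1.17, 1.48 and 1.04. Between 60 and 30 days 6 of the 12 were lower (12.4% of all genes) and 0 higher (10.3%). Among the lower ones were B2m by -1.50 and Tap1 by -0.44, as was Psmb8. Between 30 and 10 days, where Psmb8, Psmb10, Psme1 and Psme2 were higher, 0 of the 12 were higher and 1 was lower (3 and 1 with upper-quartile factors).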

How the data were processed

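RNA was extracted with a miRNeasy kit and a TruSeq mRNA kit gave the libraries, per the labels' protocols. Fragments of each gene came in 1 table deposited by the authors, whose values are expected counts, and 233 of 17147 rows hold a fractional value. The submitters' processing notes name bcl2fastq 1.8.4, FastQC, TopHat2 2.0.9, Bowtie2 2.1.0.0, Cufflinks, Cuffdiff 2.1.1 and the build rn5. The annotation and strandedness are not given in the sources used here, so overlapping and antisense genes cannot be told apart.

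Expected counts were rounded, filtered with filterByExpr by group (11658 genes kept), scaled with TMM and fitted in 1 edgeR 4.0.16 quasi-likelihood model over all 16 libraries (R 4.3.3, robust, no covariate). The F tests of 6 pairs of groups and of the 3 differences from 0 days together were adjusted by Benjamini-Hochberg over all genes tested and called at 0.05. Fold changes use a prior count of 0.125. Ratios of 2 genes' counts (0.5 added) were compared by exact permutation tests. The floor of a library is 3 fragments of its total, which covers counting error only. Only the edgeR fit was tried on simulated counts. These were built on the TMM-scaled library sizes, so they cannot show which scaling is right here. The ratio tests and the motif search were not simulated.

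The members and lists were chosen with earlier results of these data known. Values in every library are given for the immunoproteasome subunits, their constitutive partners, Psme1 and Psme2, and, in each class of 4 or more, for the 2 genes with the largest and the 1 with the smallest log2 fold change at 10 days; members called against the trend of their class are named. Values in every library for Psmd1, Psmd5, Psmg4 and Psmb11 were added after seeing them. Of the other lists, up to 4 genes with the smallest joint p are named, and some that this rule names are not reported here. Alternatives were RLE, upper-quartile and no factors, DESeq2 1.42.0, no filter, fits of 2 groups, the replicate block, the letter ending each title as a covariate, a threshold of 0.01, 5 added to counts in ratios, and leaving out each library. Promoter windows are RefSeq's on GRCr8, while the fragments were mapped to rn5.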

Additional observations from a re-analysis of the deposited data

Results flagged for a closer look

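Among 196 groups of 4 libraries (49 members at 4 times), 6 held a library far from the other 3, and chance gives about 1 such group in 20. Psmb10 stood at 11.2 CPM in the 60-day replicate 1 against 17.3 to 18.1 in the others. Psmb3 stood at 86.7 CPM in the 0-day replicate 3 against 78.7 to 79.1. Psmd7 stood at 198 CPM in the 10-day replicate 1 against 224 to 226, and Psmc5 at 227 in the 30-day replicate 2 against 255 to 258. In 60-day libraries Psmc6 stood at 170 CPM in replicate 4 against 183 to 184, and Psmd10 at 5.72 in replicate 2 against 7.55 to 7.79.

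The response differed between times, by the edgeR test of the difference, for 26 members between 30 and 10 days, 27 between 60 and 10 days and 9 between 60 and 30 days. Some members were called higher at 10 days and lower at a later time, both against the same 0-day libraries. For 30 days these were Psmd1 (log2 difference from 10 days -0.76), Psmd2 (-0.91), Psmd3 (-0.48), Psmd7 (-0.39) and Psme4 (-0.61). For 60 days they were Psmd1 (-0.64), Psmd2 (-0.96) and Psme3 (-0.69). With library totals these genes had later values against 0 days of 0.024 to 0.33, not all passing the test, while their differences from 10 days were -0.55 to -1.22.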

How the results depend on the processing

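The title letter, DESeq2, RLE factors, the missing low-count filter and the summing of Psma3 and Psma3l (chosen after seeing the data) left each count of changed members within 1.5 times its value, apart from those given here. With no filter 3 members were higher at 60 against 30 days and 2 at 60 against 10 days, and with the title letter 3 were higher and 7 lower at 60 against 30 days. Fits of the 2 compared groups gave 5 lower at 60 days, 3 changed at 60 against 30 days (1 higher, 2 lower) and 2 higher at 60 against 10 days. An adjusted p under 0.01 gave 11 changed at 60 days (2 lower), 2 higher at 30 against 10 days, 3 changed at 60 against 30 days (1 higher, 2 lower) and 2 higher at 60 against 10 days. Upper-quartile factors gave 22 higher and 1 lower at 60 days and 8 higher at 60 against 10 days. Library totals gave 49 higher and 0 lower at 10 days, 41 and 0 at 30 days, 44 and 0 at 60 days, 2 and 34 at 30 against 10 days, 2 and 12 (14 in all) at 60 against 30 days, and 0 and 36 at 60 against 10 days. In 57 cases a sign turned where the value was called under TMM or the alternative, all with library totals, which shift the median of all genes. Signs called in neither fit turned in 159 cases over all alternatives, 28 of them with upper-quartile factors. The log2 fold changes with library totals of the 57 called cases are listed next. At 10 days they were Psma6 0.46, Psma7 0.27, Psmb10 0.56, Psmb6 0.20, Psmd12 0.59, Psmd6 0.56, Psmd9 0.21, Psmf1 0.36. At 30 days they were Psma3 0.21, Psma3l 0.10, Psma4 0.49, Psma6 0.23, Psma7 0.025, Psmb6 0.12, Psmb7 0.36, Psmc2 0.41, Psmc3 0.49, Psmc5 0.49, Psmd1 0.10, Psmd11 0.32, Psmd12 0.16, Psmd2 0.17, Psmd3 0.32, Psmd4 0.40, Psmd6 0.37, Psmd7 0.33, Psmd8 0.40, Psmd9 0.12, Psme3 0.46, Psme4 0.13, Psmf1 0.35. At 60 days they were Psma3l 0.21, Psma6 0.37, Psma7 0.13, Psmb5 0.18, Psmb6 0.31, Psmb7 0.29, Psmc1 0.32, Psmc3 0.37, Psmc5 0.27, Psmd1 0.13, Psmd11 0.25, Psmd12 0.21, Psmd2 0.024, Psmd3 0.25, Psmd6 0.33, Psmd7 0.33, Psmd9 0.14, Psme3 0.20, Psmg1 0.35, Psmg2 0.40. At 60 against 10 days they were Psma6 -0.093, Psmb2 -0.20, Psmb4 -0.18, Psmc2 -0.25, Psmc3ip -0.0004, Psmd6 -0.22.

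Leaving out each library in turn gave 32 to 36 changed members at 10 days (27 to 31 higher, 5 lower), 25 to 30 at 30 days (15 to 16 higher, 10 to 14 lower), 15 to 24 at 60 days (11 to 15 higher, 2 to 10 lower), 22 to 26 at 30 against 10 days (2 to 4 higher, 19 to 22 lower), 5 to 13 at 60 against 30 days (2 to 9 higher, 3 to 5 lower), 24 to 27 at 60 against 10 days (2 to 4 higher, 21 to 25 lower) and 40 to 43 in the joint test. The lower count at 60 days was 3 without the 0-day replicate 1, 4 without replicate 2, 3 or 4 of 0 days and 2 without the 60-day replicate 4. At 60 against 30 days 5 were changed without the 30-day replicate 1, and the higher count was 2 without it, 3 without the 30-day replicate 2, 2 without the 60-day replicate 2 or 3 and 9 without the 60-day replicate 4. The higher count was 2 at 30 against 10 days without the 30-day replicate 2, and 2 at 60 against 10 days without the 10-day replicate 1 or 3 or the 60-day replicate 2 or 3. The log2 ratio of Psmb8 to Psmb5 differed from 0 days by 0.59 to 0.89, 1.81 to 2.12 and 1.01 to 1.42 at the 3 times, that of Psmb9 to Psmb6 by 1.58 to 1.76, 1.78 to 2.00 and 1.04 to 1.27, and that of Psmb10 to Psmb7 by -0.19 to -0.09, 0.55 to 0.65 and 0.15 to 0.41, the highest without the 60-day replicate 1. With 3 against 4 libraries the exact test cannot reach 0.05.

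Same-numbered libraries did not deviate together: 4 of 24 pairs had a correlation over 0.1 (range -0.24 to 0.22), and 7 of 24 comparisons were best with their own number. With the replicate block, 34, 27 and 20 members were changed at 10, 30 and 60 days, 25 at 30 against 10 days, 9 at 60 against 30 days, 25 at 60 against 10 days and 41 in the joint test.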
